A study of Mus musculus with 12 samples.

Results

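The comparison of combination-treated with ADU-S100-treated tumors addressed what cyto-IL-15 adds to the transcriptome of a tumor that already receives a STING agonist. Its members were the 3 tumors labelled as the combination and the 3 labelled ADU-S100, 6 of the 12 tumors sequenced, chosen by their labels alone. All were subcutaneous TRAMP-C2 tumors in the right flank of male C57BL/6J mice that were 6 to 8 weeks old when injected. TRAMP-C2 cells come from a prostate tumor of a transgenic mouse. Tumors of about 200 mm3 were injected with both agents or with ADU-S100 alone. Combination tumors received 3 doses of ADU-S100 (50 µg each, on days 0, 2 and 4) and 2 doses of cyto-IL-15 (10 µg each, on days 0 and 4), and ADU-S100 tumors received the same 3 doses of ADU-S100 without cyto-IL-15. The other tumors were 3 with cyto-IL-15 alone and 3 with HBSS (Hank's balanced salt solution, the vehicle). They are used here to show where a level lies and in the alternative fits on all 12 tumors. Tumors were removed on day 6, divided into parts and frozen, and which part went into a library is not stated. RNA was taken from unsorted tissue, so one library holds tumor, stroma, infiltrating leukocytes and any adjacent tissue. Fewer cells of a type and less RNA per cell cannot be told apart in it. The labels name separate tumors but not the mice they came from, so p-values measure the spread between these tumors.

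ADU-S100 is a synthetic cyclic dinucleotide that binds STING, a protein that turns the detection of cytosolic DNA into type I interferon production. Interleukin-15 is the cytokine that natural killer (NK) cells and memory CD8 T cells need for survival. It is handed over by its receptor chain IL-15Rα on one cell to the β and γ chains on a lymphocyte, which then signals through JAK1, JAK3 and STAT5. The form used here, cyto-IL-15, carries a tail that anchors it to cell membranes. Lymphocytes under this cytokine are known to fill their granules with perforin, which opens membranes, and with granzymes, the serine proteases that perforin lets into a target cell.

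Levels are CPM, read counts scaled to a common library total after TMM normalization (a correction for library composition), and are given in the order 20L, 22 and 28LL for the combination and 17LL, 18R and 22LR for ADU-S100. Total counts lay between 66085574 and 72939679 in the combination tumors and between 69497371 and 103700199 in the ADU-S100 tumors. Combination tumor 28LL stood apart from the others. Over 18689 tested genes its log2 levels correlated at 0.925 to 0.952 with the other 5 tumors, which correlated at 0.982 to 0.994 with each other. In 28LL, 1324 genes were more than 1 log2 unit above each of the other 5 tumors and 920 more than 1 below, whereas the other 5 tumors each had 5 to 12 and 0 to 88 such genes. The SD of the log2 level was larger among combination tumors for 72.5% of genes. Values without 28LL are therefore given beside list medians and beside many of the log2 fold changes that it moved. Where no such value is given, 28LL may still have moved the log2 fold change. The list of epithelial and TRAMP-C2 tumor genes summed to 4053, 3380 and 3680 CPM in the combination tumors, against 4237, 3207 and 3213 CPM in the ADU-S100 tumors. These sums include Yap1, which had 127, 96.98 and 1141 CPM in the combination tumors, against 122, 120.3 and 131 CPM in the ADU-S100 tumors. A large part of the 28LL sum is therefore Yap1, and similar sums do not show similar tumor content. Of single marker genes, the luminal epithelial keratin Krt18, chosen like Vim after its values were seen, was scarce. Krt18 had 0.0896, 0.174 and 0.302 CPM in the combination tumors, against 0.0701, 0.106 and 0.0550 CPM in the ADU-S100 tumors, while Vim, an intermediate filament of mesenchymal cells, had 3083, 2521 and 1903 CPM in the combination tumors, against 3289.7, 2401 and 2362 CPM in the ADU-S100 tumors.

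The count of differentially expressed genes (DEGs) between combination and ADU-S100 tumors was 0 by edgeR and 4 by DESeq2 on the same 6 tumors. The edgeR quasi-likelihood test called 0 of 18689 genes (0%) by the limits of an adjusted p below 0.05 and a log2 fold change beyond 1 in either direction, and its smallest adjusted p was 0.884. At an unadjusted p under 0.05 it had 802 genes (4.29%), of which 454 (2.43%) had higher and 348 (1.86%) lower means in the combination. The Wald test of DESeq2 called 4 genes (0.0108% of the genes it adjusted), all of them lower: Nfia, Omd, Fam180a and Ighg1. It gave no adjusted p for Gzmc, Gzmd, Gzme, Gzmf and Gzmg, so it could not call these genes. With all 12 tumors in one DESeq2 fit, 15 genes were called (0.0549%), 13 of them higher, including Gzma, Gzmb, Gzmc, Prf1, Klrg1, Lyz2, Cd83 and Spint1. That fit gave no adjusted p for Gzmd, Gzme, Gzmf and Gzmg. The spread that set these limits was a biological coefficient of variation of 0.400. Every combination tumor lay above every ADU-S100 tumor for 871 genes (4.66%) and below every ADU-S100 tumor for 1157 genes (6.19%). Log2 fold changes of edgeR are combination over ADU-S100. Their standard error (SE) was derived from the test, as the absolute log2 fold change over the square root of its F statistic. Gene counts at p under 0.05 refer to the unadjusted p of edgeR. Every adjusted p of edgeR lay at 0.884 or above, so no single difference named here passed that test.

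Genes of cytotoxic granules had some of the highest log2 fold changes. All 10 tested members of the list of granzymes and perforin had a positive log2 fold change, as did 52.9% of all tested genes, with a median of 3.79 against 0.02 over all tested genes. Of these 10 genes, 6 did not overlap between the groups, all higher in the combination, where 4.66% of all genes did so, and 9 had p under 0.05, where 2.43% of all genes were higher at that limit. All 10 were highest in 28LL, as were 34.2% of all tested genes. Without 28LL the median was 1.44, and 6 genes still did not overlap, where 11.5% of all genes were then higher without overlap.

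Gzma, the trypsin-like granzyme, had 88.8, 372 and 1613 CPM in the combination tumors, against 36.1, 55.6 and 74.4 CPM in the ADU-S100 tumors. The groups did not overlap, and even the lowest combination tumor, 20L, lay above the highest ADU-S100 tumor. The log2 fold change of 3.65 (SE 1.02) became 2.06 without 28LL. Gzmb, which cleaves caspases and their substrates, had 61.2, 306 and 2306 CPM in the combination tumors, against 39.2, 57.2 and 85.1 CPM in the ADU-S100 tumors. Here 20L lay inside the ADU-S100 range, so the groups overlapped, with a log2 fold change of 3.89 (SE 1.26, 1.60 without 28LL). Prf1, which encodes perforin, had 41.5, 159 and 1302 CPM in the combination tumors, against 21.97, 43.2 and 51.95 CPM in the ADU-S100 tumors, and 20L again lay within the ADU-S100 range, with a log2 fold change of 3.69 (SE 1.23, 1.36 without 28LL). Tumor 22 was above all 3 ADU-S100 tumors for each of these genes. In HBSS tumors Gzma had 1.74 to 3.01 CPM, Gzmb 2.42 to 4.09 CPM and Prf1 2.38 to 4.16 CPM, and in cyto-IL-15 tumors Gzma had 9.40 to 44.3 CPM, Gzmb 12.5 to 18.2 CPM and Prf1 13.5 to 23.7 CPM.

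The granzymes Gzmb to Gzmg lie in one cluster on the minus strand of chromosome 14 (GRCm38, from Gzme at chr14:56117619-56120625 to Gzmb at chr14:56258856-56262260), Gzma on chromosome 13 (chr13:113093825-113100979). Gzmc had 143, 215 and 2209 CPM in the combination tumors, against 56.98, 61.4 and 106 CPM in the ADU-S100 tumors, without overlap, and its log2 fold change was 3.53 (SE 1.11, 1.26 without 28LL). Gzmd had 53.04, 99.01 and 2873 CPM in the combination tumors, against 11.5, 19.1 and 49.3 CPM in the ADU-S100 tumors, without overlap, and its log2 fold change was 5.26 (SE 1.71, 1.51 without 28LL). Gzmf had 47.6, 71.9 and 1946 CPM in the combination tumors, against 13.1, 20.7 and 42.1 CPM in the ADU-S100 tumors, and its log2 fold change was 4.78 (SE 1.57, 1.24 without 28LL). In all 3 genes tumors 20L and 22 lay above the highest ADU-S100 tumor, and 28LL lay more than 10 times above 20L and 22. Gzmg had 24.3, 29.99 and 2021 CPM in the combination tumors, against 2.16, 5.78 and 18.3 CPM in the ADU-S100 tumors, and its log2 fold change was 6.32 (SE 2.08, 1.63 without 28LL), the highest among all tested genes whose groups did not overlap. Gzme had 16.03, 35.03 and 1216 CPM in the combination tumors, against 3.15, 6.17 and 17.4 CPM in the ADU-S100 tumors, overlapping through 20L, with a log2 fold change of 5.58 (SE 1.85, 1.52 without 28LL). These genes share parts of their sequence: 21.9% of the 50-base windows of the Gzmd transcript, 20.6% of Gzme, 19.8% of Gzmg, 7.36% of Gzmf and 4.14% of Gzmc occur in another granzyme of the cluster, against 0% of Gzmb, so the split of reads in the shared parts is uncertain, most of all for Gzmd, Gzme and Gzmg. The last member of the cluster in the list, Gzmn, had 0.0299, 0 and 3.09 CPM in the combination tumors, against 0, 0.00967 and 0.0330 CPM in the ADU-S100 tumors and was not tested.

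Smaller differences were seen for Gzmk and Gzmm. Gzmk, found mainly in T cells, had 1.33, 5.19 and 16.3 CPM in the combination tumors, against 1.63, 2.16 and 1.83 CPM in the ADU-S100 tumors, overlapping, with a log2 fold change of 2.03 (SE 0.83, 0.80 without 28LL). Gzmm, known from NK cells, had 1.00, 1.28 and 1.96 CPM in the combination tumors, against 0.813, 0.938 and 0.649 CPM in the ADU-S100 tumors, without overlap, with a log2 fold change of 0.83 (SE 0.38, 0.51 without 28LL). Summed over the list, granzymes and perforin had 478, 1295 and 15508 CPM in the combination tumors, against 187, 272 and 448 CPM in the ADU-S100 tumors, and these sums did not overlap.

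**Figure D1:**
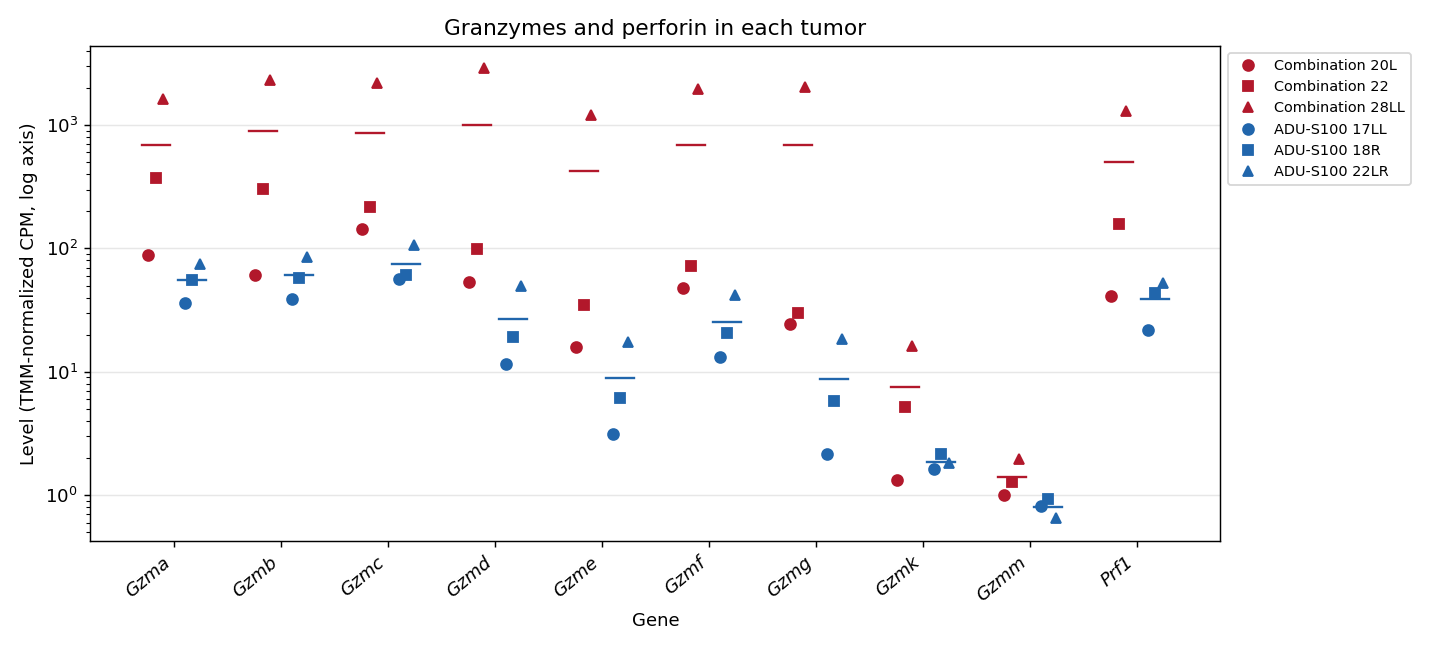
Level of each tested granzyme and of perforin (TMM-normalized CPM, log axis) in the combination tumors (red) and the ADU-S100 tumors (blue); each point is a tumor and each bar the mean of a group. Tumor 28LL (red triangle) is the highest of the 6 tumors for all 10 genes, and tumors 20L and 22 lie above all ADU-S100 tumors for Gzma, Gzmc, Gzmd, Gzmf, Gzmg and Gzmm.

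The 250 bases before the RefSeq start of granule genes are shown because these genes ranked high together and share a motif there. For Gzmb that start lies 74 bases upstream of the gene start given above, and for the other 4 genes shown 0 to 2 bases. RUNX factors, among them Runx3 of cytotoxic lymphocytes, are known to bind the letters TGTGGT. Searched on both strands as TGTGGT in the RefSeq promoters of build GRCm38.p6, the motif was present in 9 of the 10 granzyme and perforin promoters (90% of them), against 43.8% of 16 promoters of NK receptor genes and 11.4% of 12574 promoters of tested genes. The other motifs searched on both strands were TTCNNNGAA, the STAT site, in 1 of 10 against 5.96%, TGANTCA, the AP-1 site, in 1 of 10 against 4.76%, and the interferon-stimulated response element, in 1 of 10 against 2.78%. The promoters of the chromosome 14 cluster resemble each other, so these matches are not independent. In the sequences of the minus strand for Gzma (chr13:113100982-113101231), Gzmb (chr14:56262335-56262584), Gzmc (chr14:56234658-56234907) and Gzmg (chr14:56159580-56159829) and of the plus strand for Prf1 (chr10:61297586-61297835), capitals mark each TGTGGT or its reverse complement ACCACA.
Gzma: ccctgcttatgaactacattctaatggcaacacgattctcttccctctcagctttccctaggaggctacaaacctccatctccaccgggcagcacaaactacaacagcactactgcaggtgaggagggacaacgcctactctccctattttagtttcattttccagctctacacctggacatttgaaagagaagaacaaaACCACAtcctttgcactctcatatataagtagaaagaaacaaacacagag
Gzmb: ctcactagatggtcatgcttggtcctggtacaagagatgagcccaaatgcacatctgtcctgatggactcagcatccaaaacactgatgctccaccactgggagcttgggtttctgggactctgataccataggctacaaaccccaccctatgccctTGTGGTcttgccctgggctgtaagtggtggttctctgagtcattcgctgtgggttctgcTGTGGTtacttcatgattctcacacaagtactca
Gzmc: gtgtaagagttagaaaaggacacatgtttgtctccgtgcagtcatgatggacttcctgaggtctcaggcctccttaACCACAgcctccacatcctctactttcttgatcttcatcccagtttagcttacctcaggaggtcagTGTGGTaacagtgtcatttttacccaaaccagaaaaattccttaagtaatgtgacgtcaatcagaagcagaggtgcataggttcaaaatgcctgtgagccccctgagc
Gzmg: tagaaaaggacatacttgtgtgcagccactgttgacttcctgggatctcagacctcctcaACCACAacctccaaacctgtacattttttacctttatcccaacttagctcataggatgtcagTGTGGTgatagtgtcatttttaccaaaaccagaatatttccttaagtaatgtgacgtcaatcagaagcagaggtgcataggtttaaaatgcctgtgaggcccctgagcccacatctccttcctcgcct
Prf1: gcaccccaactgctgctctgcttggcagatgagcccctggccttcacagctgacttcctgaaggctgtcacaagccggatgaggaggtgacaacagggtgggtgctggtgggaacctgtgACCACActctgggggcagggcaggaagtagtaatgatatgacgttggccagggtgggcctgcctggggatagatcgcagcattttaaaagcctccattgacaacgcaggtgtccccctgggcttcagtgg
Gzma and Prf1 have 1 match each and Gzmb, Gzmc and Gzmg 2 each. A match describes these letters and not a bound site.

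Genes for loading and releasing granules differed less than the granzymes. Of 13 tested genes, 12 had a positive log2 fold change, 5 were higher at p under 0.05 and 0 without overlap (52.9%, 2.43% and 4.66% of all tested genes). The median was 1.03, and 0.17 without 28LL. Nkg7, a granule membrane protein of killer lymphocytes, had 21.6, 60.7 and 212 CPM in the combination tumors, against 20.9, 26.5 and 22.1 CPM in the ADU-S100 tumors, with a log2 fold change of 2.09 (SE 0.76, 0.83 without 28LL). Fasl, the ligand of the death receptor Fas, had 2.60, 6.77 and 26.4 CPM in the combination tumors, against 2.22, 2.95 and 2.63 CPM in the ADU-S100 tumors, with a log2 fold change of 2.21 (SE 0.81, 0.85 without 28LL). For both genes tumor 20L lay inside the ADU-S100 range, 22 above it and 28LL highest. Unc13d and Rab27a, which prime and dock granules at the membrane, had log2 fold changes of 1.58 (SE 0.65, 0.52 without 28LL) and 1.95 (SE 0.81, 0.45 without 28LL).

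NK cell receptors were among the lists with the highest medians. Of 21 tested genes, 19 had a positive log2 fold change, 12 were higher at p under 0.05 and 4 (Klrb1c, Klrg1, Txk and Klrd1) were higher without overlap (52.9%, 2.43% and 4.66% of all tested genes). The median was 1.53, and 0.62 without 28LL, when 4 were higher without overlap, against 11.5% of all genes. Klrb1c, which encodes the NK1.1 antigen, had 10.8, 23.3 and 77.1 CPM in the combination tumors, against 7.82, 7.98 and 8.25 CPM in the ADU-S100 tumors, with a log2 fold change of 2.22 (SE 0.68, 1.09 without 28LL). Klrg1, a receptor of terminally differentiated effector cells, had 10.01, 29.05 and 181 CPM in the combination tumors, against 4.54, 8.27 and 9.28 CPM in the ADU-S100 tumors, with a log2 fold change of 3.33 (SE 1.05, 1.41 without 28LL). The ADU-S100 tumors lay close together for Klrb1c, while the combination tumors spanned a wide range for both genes. Klrd1, the CD94 chain of NKG2 receptors, had 15.5, 30.3 and 75.1 CPM in the combination tumors, against 14.3, 12.4 and 14.3 CPM in the ADU-S100 tumors, with a log2 fold change of 1.57 (SE 0.54, 0.75 without 28LL). Txk, a Tec-family kinase of lymphocytes, had 6.06, 12.7 and 63.1 CPM in the combination tumors, against 3.74, 4.34 and 5.96 CPM in the ADU-S100 tumors, with a log2 fold change of 2.55 (SE 0.86, 1.00 without 28LL). In both, tumor 20L exceeded the highest ADU-S100 tumor only narrowly. Ncr1, the NKp46 activating receptor that defines NK cells, had 8.36, 20.6 and 68.2 CPM in the combination tumors, against 8.09, 7.36 and 8.55 CPM in the ADU-S100 tumors, overlapping through 20L, with a log2 fold change of 2.03 (SE 0.71, 0.86 without 28LL). Klre1, a receptor of the NK gene complex, had a log2 fold change of 1.71 (SE 0.60, 0.82 without 28LL), also with overlap. The summed level of the whole list was 346, 547 and 1507 CPM in the combination tumors, against 337, 337 and 336 CPM in the ADU-S100 tumors.

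T cell genes had positive log2 fold changes throughout, with overlap. All 18 tested genes of the receptor complex were positive, 10 were higher at p under 0.05 and 0 without overlap (52.9%, 2.43% and 4.66% of all tested genes), with a median of 1.36, and 0.78 without 28LL. Zap70, the kinase that the engaged receptor recruits, had 11.98, 32.8 and 87.5 CPM in the combination tumors, against 8.67, 14.7 and 11.9 CPM in the ADU-S100 tumors, with a log2 fold change of 1.92 (SE 0.68, 0.93 without 28LL). Cd4, the helper T cell coreceptor, had 5.92, 9.07 and 19.7 CPM in the combination tumors, against 2.52, 5.99 and 2.61 CPM in the ADU-S100 tumors, with a log2 fold change of 1.65 (SE 0.57, 1.02 without 28LL). Tumor 20L lay within the ADU-S100 range in both, and 22 and 28LL lay above it. Skap1, Lat and Trbc1, which act in receptor signaling or form the receptor, had log2 fold changes of 1.37 (0.83 without 28LL), 1.35 (1.01 without 28LL) and 2.40 (0.79 without 28LL). The killer T cell coreceptor Cd8a, chosen after its values were seen, had 11.7, 32.3 and 32.9 CPM in the combination tumors, against 12.6, 21.1 and 14.4 CPM in the ADU-S100 tumors, with a log2 fold change of 0.68 (SE 0.42), and was about equal in 22 and 28LL.

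Among the transcription factors of lymphocytes, 13 of 14 were positive, 3 were higher at p under 0.05 and 0 without overlap (52.9%, 2.43% and 4.66% of all tested genes), with a median of 0.90, and 0.27 without 28LL. Eomes, which drives the cytotoxic program, had 10.4, 27.2 and 148 CPM in the combination tumors, against 7.94, 10.9 and 11.3 CPM in the ADU-S100 tumors, with a log2 fold change of 2.64 (SE 0.93, 0.90 without 28LL). Tbx21, its relative T-bet, had 5.63, 12.04 and 26.5 CPM in the combination tumors, against 3.51, 6.57 and 5.04 CPM in the ADU-S100 tumors, with a log2 fold change of 1.56 (SE 0.57, 0.81 without 28LL). Runx3 had 30.5, 46.5 and 115 CPM in the combination tumors, against 21.6, 33.1 and 28.97 CPM in the ADU-S100 tumors, with a log2 fold change of 1.21 (SE 0.49, 0.47 without 28LL). For all 3 factors tumor 28LL was highest and 22 lay above the ADU-S100 range, while 20L lay inside it.

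Checkpoint and costimulatory genes showed 5 of 18 genes higher without overlap, against 4.66% of all genes. Of the 18, 17 had a positive log2 fold change and 7 were higher at p under 0.05 (52.9% and 2.43% of all genes), with a median of 1.19, and 0.30 without 28LL. Icos, the inducible costimulator of T cells, had 3.73, 6.10 and 25.1 CPM in the combination tumors, against 1.58, 2.85 and 1.96 CPM in the ADU-S100 tumors, with a log2 fold change of 2.46 (SE 0.75, 1.20 without 28LL). Cd96, a receptor of T and NK cells for nectin-like ligands, had 6.72, 13.2 and 32.3 CPM in the combination tumors, against 3.81, 5.68 and 5.29 CPM in the ADU-S100 tumors, with a log2 fold change of 1.83 (SE 0.57, 1.02 without 28LL). All 3 combination tumors lay above the ADU-S100 tumors, 20L nearest to them. Ctla4, the inhibitory receptor for B7 ligands, had 1.27, 2.72 and 9.59 CPM in the combination tumors, against 0.673, 1.26 and 1.24 CPM in the ADU-S100 tumors, and 20L lay just above 18R, with a log2 fold change of 2.11 (SE 0.77, 0.91 without 28LL). Cd86, a B7 ligand of antigen-presenting cells, had 12.3, 19.96 and 45.9 CPM in the combination tumors, against 11.9, 12.2 and 11.2 CPM in the ADU-S100 tumors, with a log2 fold change of 1.16 (SE 0.47, 0.46 without 28LL). Entpd1, the CD39 ectonucleotidase, chosen after its values were seen, had 59.3, 63.7 and 156 CPM in the combination tumors, against 44.8, 51.4 and 48.3 CPM in the ADU-S100 tumors, with a log2 fold change of 0.96 (SE 0.39, 0.35 without 28LL), and its HBSS tumors had 73.5 to 80.8 CPM. For Cd86 and Entpd1, 28LL had more than 2 times the level of any other of the 6 tumors. Pdcd1lg2 (the PD-1 ligand PD-L2) and Tnfrsf18 (GITR) had log2 fold changes of 2.86 (SE 1.04, 1.05 without 28LL) and 1.42 (SE 0.57, 0.70 without 28LL), with overlap.

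The receptor and signaling genes of interleukin-15 itself overlapped between the groups in every case. Of 17 tested genes, 15 had a positive log2 fold change, 2 were higher at p under 0.05 and 0 without overlap (52.9%, 2.43% and 4.66% of all tested genes). All 17 were highest in 28LL, and the median of 0.73 was 0.10 without it. Il2rb, the β chain that interleukin-2 and interleukin-15 share, had 63.7, 152 and 681 CPM in the combination tumors, against 39.6, 68.3 and 65.6 CPM in the ADU-S100 tumors, with a log2 fold change of 2.38 (SE 0.84, 0.90 without 28LL). Il2ra, the high-affinity chain for interleukin-2, had 3.90, 7.67 and 57.3 CPM in the combination tumors, against 2.27, 5.55 and 3.83 CPM in the ADU-S100 tumors, with a log2 fold change of 2.57 (SE 1.02, 0.57 without 28LL). Il2rg, the common γ chain, had 56.7, 95.9 and 177 CPM in the combination tumors, against 58.8, 61.4 and 56.3 CPM in the ADU-S100 tumors, with a log2 fold change of 0.91 (SE 0.39, 0.38 without 28LL). These are the receptor chains of the responding lymphocytes, and in each of them 28LL was highest and 20L lay inside the ADU-S100 range. Il15ra, the presenting chain, had 11.01, 13.6 and 34.7 CPM in the combination tumors, against 14.98, 14.0 and 13.1 CPM in the ADU-S100 tumors, with a log2 fold change of 0.50 (SE 0.44), and its log2 fold change was -0.19 without 28LL. Il15 had 6.56, 9.17 and 13.9 CPM in the combination tumors, against 10.1, 8.47 and 9.72 CPM in the ADU-S100 tumors, and the groups overlapped. Of the kinases and transcription factors below the receptor, Jak3 had 36.5, 60.1 and 127 CPM in the combination tumors, against 44.1, 46.2 and 42.6 CPM in the ADU-S100 tumors, and Stat5a had 27.99, 31.2 and 42.7 CPM in the combination tumors, against 32.9, 37.96 and 38.6 CPM in the ADU-S100 tumors. Cish, a feedback inhibitor that STAT5 induces, had 8.35, 16.8 and 30.9 CPM in the combination tumors, against 11.2, 14.2 and 8.47 CPM in the ADU-S100 tumors. Only the tumor 28LL was above the ADU-S100 range in Stat5a, and 22 and 28LL were in Cish. The survival gene Bcl2 had 45.8, 39.3 and 63.9 CPM in the combination tumors, against 33.8, 44.01 and 51.5 CPM in the ADU-S100 tumors, and Pim1, a kinase that STAT5 also induces, had 38.7, 63.2 and 190.5 CPM in the combination tumors, against 63.1, 43.01 and 68.5 CPM in the ADU-S100 tumors. Over the whole list the log2 fold changes ran from -0.10 to 2.57.

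RNAs of the cytokines that the study measured as protein, other than IFN-α, overlapped between the groups. The list holds no gene of IFN-α, which the study also measured, and holds Il12a and Il12b for IL-12. Of 13 tested genes, 10 had a positive log2 fold change (52.9% of all genes), 0 had p under 0.05 (4.29%) and 0 were without overlap, with a median of 0.69, and -0.08 without 28LL. Il1b, an inflammatory cytokine of myeloid cells, had 7.74, 8.00 and 79.7 CPM in the combination tumors, against 7.78, 4.59 and 7.23 CPM in the ADU-S100 tumors, with a log2 fold change of 2.30 (SE 0.96, 0.27 without 28LL), so 1 tumor carried the difference. Ifng, the main cytokine of activated NK and T cells, had 1.11, 3.33 and 10.4 CPM in the combination tumors, against 1.93, 2.18 and 2.03 CPM in the ADU-S100 tumors, with a log2 fold change of 1.28 (SE 0.75, 0.12 without 28LL). Il12b, a subunit of the interleukin that drives Ifng, had 0.807, 2.03 and 1.65 CPM in the combination tumors, against 0.477, 1.06 and 0.484 CPM in the ADU-S100 tumors, with a log2 fold change of 1.15 (SE 0.51). In Ifng the combination tumors spanned a range both below and above the ADU-S100 tumors. Csf2, a growth factor of granulocytes and macrophages, and Il12a had log2 fold changes of 1.73 (SE 0.85, 0.37 without 28LL) and 2.03 (SE 1.04, 0.51 without 28LL), with overlap. Tnf, the inflammatory cytokine of macrophages and lymphocytes, had 5.96, 10.8 and 25.6 CPM in the combination tumors, against 10.2, 8.17 and 8.07 CPM in the ADU-S100 tumors. Il6 had 0.687, 0.826 and 10.2 CPM in the combination tumors, against 1.26, 0.609 and 1.88 CPM in the ADU-S100 tumors, and Il10, which restrains macrophages, had 0.687, 1.28 and 3.01 CPM in the combination tumors, against 1.01, 0.938 and 1.34 CPM in the ADU-S100 tumors. In these 3 genes 28LL was highest and the other combination tumors were at or near the ADU-S100 range. Cxcl10, an interferon-induced chemokine for T and NK cells, had 152, 263 and 307 CPM in the combination tumors, against 223, 252 and 249 CPM in the ADU-S100 tumors. Ccl5, which draws the same cells, had 35.97, 37.2 and 69.2 CPM in the combination tumors, against 23.7, 67.6 and 67.7 CPM in the ADU-S100 tumors. Ifnb1, the interferon that STING induces first, had 0.0448, 0.0290 and 0.343 CPM in the combination tumors, against 0.140, 0.106 and 0.286 CPM in the ADU-S100 tumors, and all 3 overlapped between the groups. Ccl2 and Cxcl1, chemokines for monocytes and neutrophils, overlapped too. Of the wider list of lymphocyte cytokines and their receptors, 14 of 15 tested genes were positive and Xcl1, a chemokine for cross-presenting dendritic cells, had the smallest p, with a log2 fold change of 1.26 (SE 0.45).

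Type I interferon-stimulated genes, which STING signaling induces through interferon, lay on both sides of the ADU-S100 tumors in the combination group. All 34 listed genes were tested, with a median log2 fold change of 0.07, 19 of them positive, 0 higher and 1 lower at p under 0.05, against 2.43% and 1.86% of all genes. The mean log2 level of the list was 5.40, 6.01 and 7.39 in the combination tumors, against 6.31, 6.38 and 6.78 in the ADU-S100 tumors. Tumors 20L and 22 lay below and 28LL above all 3 ADU-S100 tumors, and HBSS tumors had 4.28 to 4.81. Without 28LL the median was -0.69, and 26 of the 34 genes were lower without overlap, where 12.5% of all genes were. With 28LL, 3 genes were lower without overlap, against 6.19% of all genes. Bst2, which tethers budding viruses, had 311, 392 and 466 CPM in the combination tumors, against 506, 545 and 574 CPM in the ADU-S100 tumors, with a log2 fold change of -0.47 (SE 0.19). Ddx58, the RNA sensor RIG-I, had 105, 117 and 143 CPM in the combination tumors, against 146, 145 and 169 CPM in the ADU-S100 tumors, with a log2 fold change of -0.33 (SE 0.17). Irf9, the DNA-binding subunit of the interferon-activated complex, had 60.8, 80.8 and 104 CPM in the combination tumors, against 109, 105 and 114 CPM in the ADU-S100 tumors, with a log2 fold change of -0.41 (SE 0.21, -0.62 without 28LL). All 3 combination tumors lay below the ADU-S100 tumors here, 28LL nearest to them. Ifi44, an interferon-induced gene, had 28.7, 41.8 and 94.3 CPM in the combination tumors, against 82.7, 78.6 and 127 CPM in the ADU-S100 tumors, with 28LL among the ADU-S100 tumors and a log2 fold change of -0.80 (SE 0.46, -1.45 without 28LL). Isg15, chosen after its values were seen, had 52.8, 72.8 and 253 CPM in the combination tumors, against 121, 107 and 168 CPM in the ADU-S100 tumors.

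Genes induced by interferon-γ had a median of 0.17 over 27 tested genes, and -0.26 without 28LL. Of these, 0 had p under 0.05 in either direction, against 4.29% of all genes. Also 0 were without overlap, against 4.66% of all genes higher and 6.19% lower. The sensors and adaptors of the STING pathway had a median of 0.21 over 12 tested genes, and 0.02 without 28LL. Tmem173, which encodes STING itself, had 80.7, 106 and 126 CPM in the combination tumors, against 84.8, 95.8 and 79.03 CPM in the ADU-S100 tumors, with a log2 fold change of 0.28 (SE 0.20). Cgas, chosen after its values were seen, makes the natural ligand of STING and had 31.5, 26.8 and 30.7 CPM in the combination tumors, against 29.3, 28.5 and 25.3 CPM in the ADU-S100 tumors, with a log2 fold change of 0.10 (SE 0.15). Both genes overlapped between the groups.

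**Figure D2:**
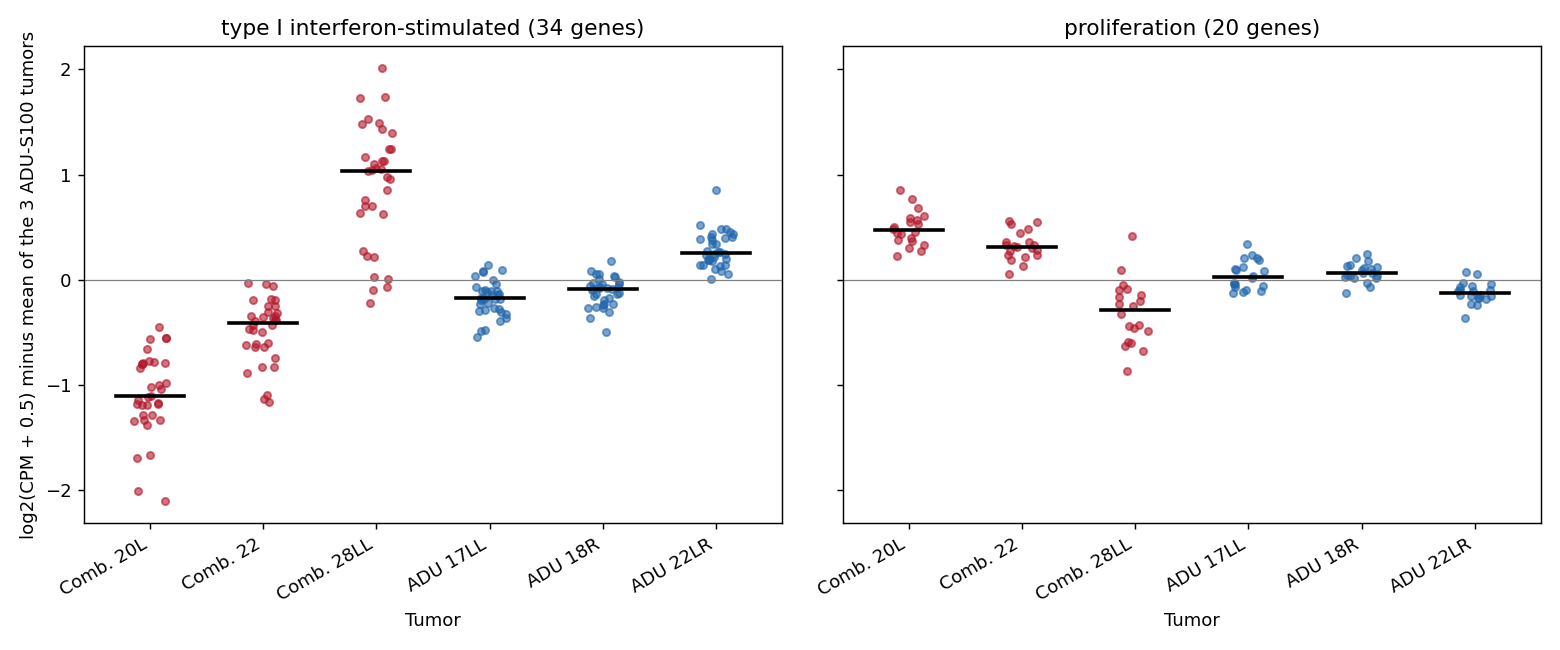
log2(CPM + 0.5) of each gene minus its mean over the 3 ADU-S100 tumors, for 34 type I interferon-stimulated genes (left) and 20 proliferation genes (right) in each of the 6 tumors; each point is a gene and each bar the median of a tumor. Interferon-stimulated genes lie below 0 in combination tumors 20L and 22 and mostly above 0 in 28LL, and proliferation genes show the opposite order.

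All 10 tested genes of MHC class II presentation had a positive log2 fold change (52.9% of all tested genes), with a median of 1.02, and 0.74 without 28LL. None was without overlap, against 4.66% of all genes higher and 6.19% lower, and 1 was higher at p under 0.05, against 2.43% of all genes. H2-DMa, which helps load peptides, had 34.9, 64.5 and 69.4 CPM in the combination tumors, against 27.03, 43.5 and 27.3 CPM in the ADU-S100 tumors, with a log2 fold change of 0.80 (SE 0.32). Cd74, the invariant chain, had 338, 1008 and 815 CPM in the combination tumors, against 205, 577 and 215 CPM in the ADU-S100 tumors, with a log2 fold change of 1.12 (SE 0.55). In both genes ADU-S100 tumor 18R lay above combination tumor 20L, and for Cd74 the HBSS tumors had 976 to 2255 CPM. The 13 genes of class I presentation had a median of 0.17, and -0.12 without 28LL, with 0 at p under 0.05, against 4.29% of all genes.

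Several genes of myeloid cells did not overlap between the groups. Lyz2, the lysozyme of macrophages and neutrophils, had 1132, 1470.2 and 1655 CPM in the combination tumors, against 771, 663 and 699 CPM in the ADU-S100 tumors, with a log2 fold change of 1.00 (SE 0.19). Its p of edgeR was the smallest among genes with a symbol, at least 1 CPM on average and higher means in the combination. The groups did not overlap, and the HBSS tumors had 1706 to 1913 CPM, above both. Its relative Lyz1, with which 15.4% of the 50-base windows of the Lyz2 transcript are shared, had 0.896, 2.52 and 1.83 CPM in the combination tumors, against 1.64, 0.793 and 1.11 CPM in the ADU-S100 tumors. Cd83, a marker of mature dendritic cells, had 10.9, 14.7 and 17.2 CPM in the combination tumors, against 4.28, 6.79 and 3.70 CPM in the ADU-S100 tumors, with a log2 fold change of 1.54 (SE 0.32), and the HBSS tumors had 22.8 to 27.9 CPM. Cd14, the coreceptor for lipopolysaccharide, had 47.6, 40.7 and 61.5 CPM in the combination tumors, against 31.3, 30.7 and 31.8 CPM in the ADU-S100 tumors, with a log2 fold change of 0.68 (SE 0.19). The ADU-S100 tumors were nearly equal for Cd14 and all combination tumors higher. Gpr34, a lysophosphatidylserine receptor of tissue macrophages, had 12.2, 17.6 and 16.3 CPM in the combination tumors, against 9.89, 9.61 and 8.06 CPM in the ADU-S100 tumors, with a log2 fold change of 0.75 (SE 0.22). Apoe, the lipid carrier that macrophages secrete, had 2270.2, 2649.7 and 4703 CPM in the combination tumors, against 1998, 2142 and 1286 CPM in the ADU-S100 tumors, with a log2 fold change of 0.83 (SE 0.34). Siglech, a lectin of plasmacytoid dendritic cells and microglia, had 1.06, 0.609 and 2.64 CPM in the combination tumors, against 0.393, 0.368 and 0.363 CPM in the ADU-S100 tumors, with a log2 fold change of 1.95 (SE 0.58, 1.16 without 28LL). Gpr34, Apoe and Siglech did not overlap between the groups.

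By list, the median of resident-type macrophage genes was 0.35 over 22 tested genes, 4 of them higher without overlap, and that of pan-macrophage genes 0.61 over 12, with 2 higher without overlap, against 4.66% of all genes. Dendritic cell genes had a median of 0.54 over 19 tested genes, with 3 higher (Cd83, Siglech and Itgae) and 1 lower (Cacnb3) without overlap, against 4.66% and 6.19% of all genes. Itgae, the CD103 integrin of cross-presenting dendritic cells and tissue-resident T cells, had 1.55, 4.04 and 2.61 CPM in the combination tumors, against 1.32, 1.32 and 0.902 CPM in the ADU-S100 tumors, with a log2 fold change of 1.22 (SE 0.43). Without 28LL these 3 medians were 0.15, 0.32 and 0.16. Neutrophil genes had a median of 1.37 over 18 tested genes and inflammatory monocyte genes 0.98 over 15. Both medians were below 0 without 28LL, at -0.18 and -0.21, and neither list had a gene without overlap. S100a9, an abundant neutrophil protein, had 7.87, 2.88 and 87.1 CPM in the combination tumors, against 4.77, 3.26 and 13.5 CPM in the ADU-S100 tumors, and its high level was that of 28LL alone. The neutrophil chemokines had a median of 0.96 over 6 tested genes, and -1.37 without 28LL.

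Among mast cell and basophil genes, Mcpt8, a basophil protease, had 0.149, 0.362 and 23.03 CPM in the combination tumors, against 0.0982, 0.0967 and 0.110 CPM in the ADU-S100 tumors, with a log2 fold change of 6.26 (SE 2.03, 1.32 without 28LL), without overlap. Tumor 28LL alone carried that level. All 8 tested genes of the list were highest in 28LL, and their median of 1.89 was -0.52 without it. The summed level of the list was 10.8, 15.9 and 135 CPM in the combination tumors, against 18.05, 12.5 and 14.03 CPM in the ADU-S100 tumors. Mcpt8 lies in the same stretch of chromosome 14 as Gzmd to Gzmg.

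Genes of fibroblasts and their matrix had lower values in the combination. Of 22 tested genes, 18 had a negative log2 fold change, 5 were lower at p under 0.05, against 1.86% of all genes, and 4 (Omd, Col1a1, Lum and Col1a2) were lower without overlap, against 6.19%. The median was -0.52, and -0.33 without 28LL. Col1a1, the main chain of type I collagen, had 5073, 5042 and 3965 CPM in the combination tumors, against 6726, 8082 and 7662 CPM in the ADU-S100 tumors, with a log2 fold change of -0.67 (SE 0.17). Col1a2, its partner chain, had 5641, 5694 and 3351 CPM in the combination tumors, against 6446, 8845 and 8697 CPM in the ADU-S100 tumors, with a log2 fold change of -0.70 (SE 0.26). In HBSS tumors Col1a1 had 8110.5 to 10288 CPM, near the ADU-S100 tumors or above them. Lum, a keratan sulfate proteoglycan that spaces collagen fibrils, had 261, 208 and 129.9 CPM in the combination tumors, against 349.7, 346 and 455 CPM in the ADU-S100 tumors, with a log2 fold change of -0.94 (SE 0.28). Omd, a related proteoglycan, had 0.448, 0.522 and 0.453 CPM in the combination tumors, against 1.14, 1.83 and 2.19 CPM in the ADU-S100 tumors, with a log2 fold change of -1.85 (SE 0.37), and was one of the 4 genes that DESeq2 called, at an adjusted p of 0.0311. The combination tumors were nearly equal for Omd, though at under 1 CPM. Thy1, which T cells as well as fibroblasts express, went the other way, with 84.9, 178 and 722 CPM in the combination tumors, against 134, 105 and 99.7 CPM in the ADU-S100 tumors.

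Among genes with a symbol and a mean of at least 1 CPM, the 2 smallest p-values of edgeR belonged to Nfia and Lrrc32. Both had lower means in the combination. Nfia, a transcription factor of the nuclear factor I family, had 19.4, 17.7 and 15.3 CPM in the combination tumors, against 40.8, 34.1 and 40.7 CPM in the ADU-S100 tumors, with a log2 fold change of -1.13 (SE 0.16) and a DESeq2 adjusted p of 0.00724. Lrrc32, the GARP protein that docks latent TGF-β on cell surfaces, had 52.6, 57.1 and 55.8 CPM in the combination tumors, against 103, 89.98 and 101 CPM in the ADU-S100 tumors, with a log2 fold change of -0.82 (SE 0.13). S1pr1, the sphingosine phosphate receptor of endothelium and lymphocytes, had 72.8, 76.8 and 61.7 CPM in the combination tumors, against 124, 113 and 119 CPM in the ADU-S100 tumors, with a log2 fold change of -0.74 (SE 0.14). Nbl1, a secreted antagonist of bone morphogenetic proteins, had 58.3, 61.1 and 66.9 CPM in the combination tumors, against 94.4, 103 and 101 CPM in the ADU-S100 tumors, with a log2 fold change of -0.67 (SE 0.13). These 4 genes were narrow within each group and far apart between groups, and 28LL did not stand apart in them.

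Zbtb20, a zinc finger repressor, had 45.7, 47.2 and 41.98 CPM in the combination tumors, against 74.01, 69.4 and 91.9 CPM in the ADU-S100 tumors, with a log2 fold change of -0.80 (SE 0.16). Itgbl1, an integrin β-like secreted protein, had 16.3, 28.9 and 26.1 CPM in the combination tumors, against 59.5, 47.4 and 54.5 CPM in the ADU-S100 tumors, with a log2 fold change of -1.17 (SE 0.24). Tle2, a corepressor of the Groucho family, had 10.8, 11.7 and 6.47 CPM in the combination tumors, against 22.7, 23.2 and 18.8 CPM in the ADU-S100 tumors, with a log2 fold change of -1.15 (SE 0.26). All were without overlap. Fam180a had 0.627, 0.623 and 0.851 CPM in the combination tumors, against 1.57, 3.78 and 6.20 CPM in the ADU-S100 tumors, with a log2 fold change of -2.45 (SE 0.54) and a DESeq2 adjusted p of 0.0311, and Lrrn4cl had a log2 fold change of -0.66 (SE 0.15). Ighg1, an immunoglobulin heavy chain called by DESeq2 and removed by the filter of edgeR, had 0.0597, 0.0290 and 0.0137 CPM in the combination tumors, against 0.0701, 6.23 and 5.44 CPM in the ADU-S100 tumors, so ADU-S100 tumor 17LL was almost as low as the combination tumors. Among the lowest log2 fold changes without overlap were also the matrix and adhesion genes Col6a5 (-2.25), C1qtnf3 (-1.68) and Itga11 (-1.68), the corepressor Runx1t1 (-1.75), and Gdpd2 (-2.34), Adh7 (-1.93, and -2.60 without 28LL) and 1600029O15Rik (-1.65).

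Of genes with higher means, Spint1, an inhibitor of the proteases that activate hepatocyte growth factor, had 19.8, 22.7 and 22.98 CPM in the combination tumors, against 7.87, 12.4 and 10.9 CPM in the ADU-S100 tumors, with a log2 fold change of 1.08 (SE 0.22). Stard4, a carrier of cholesterol inside cells, had 48.4, 40.1 and 40.5 CPM in the combination tumors, against 27.1, 29.5 and 28.5 CPM in the ADU-S100 tumors, with a log2 fold change of 0.61 (SE 0.14). Neither gene was set apart by 28LL, and neither overlapped between the groups. Lbr, the lamin B receptor of the nuclear membrane, had 62.6, 64.9 and 78.8 CPM in the combination tumors, against 38.3, 50.6 and 44.3 CPM in the ADU-S100 tumors, with a log2 fold change of 0.64 (SE 0.17). Ccl1, a chemokine of activated T cells that binds CCR8, had 1.21, 2.86 and 2.62 CPM in the combination tumors, against 0.827, 0.696 and 0.495 CPM in the ADU-S100 tumors, with a log2 fold change of 1.73 (SE 0.44). Dkkl1 and Fam110c had log2 fold changes of 2.06 (SE 0.50) and 1.19 (SE 0.29). Among 14067 genes with at least 1 CPM on average, 88 had groups apart by more than the wider range within a group, 37 higher and 51 lower in the combination.

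**Figure D3:**
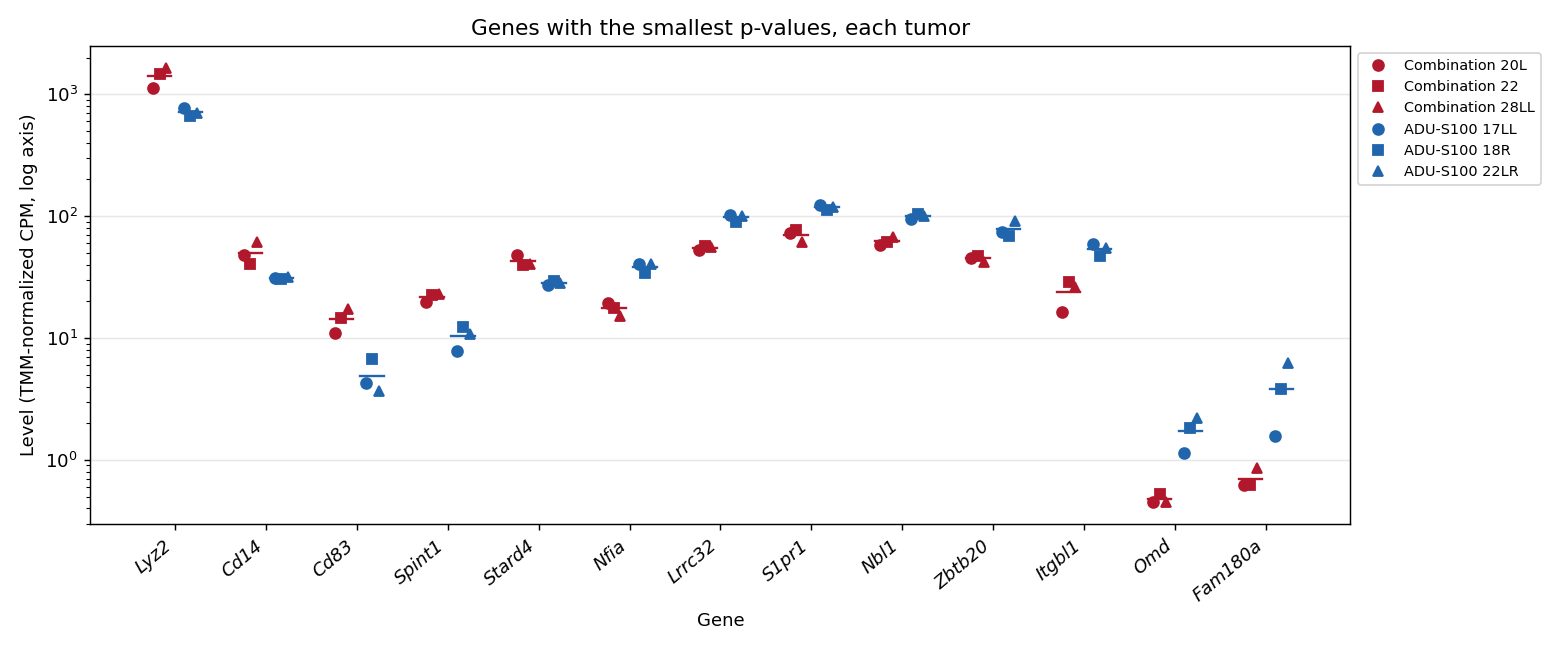
Level (TMM-normalized CPM, log axis) of 13 genes with small p-values in the combination tumors (red) and the ADU-S100 tumors (blue); each point is a tumor and each bar the mean of a group. The groups do not overlap for any of the 13 genes, which were chosen by these same p-values, and 28LL (red triangle) lies near 20L and 22.

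Epithelial genes of high fold change stood out in 28LL. Cdh1, the E-cadherin of cell junctions, had 9.29, 11.4 and 22.9 CPM in the combination tumors, against 4.42, 4.56 and 6.62 CPM in the ADU-S100 tumors, with a log2 fold change of 1.49 (SE 0.40). Epcam, an epithelial adhesion protein, had 0.777, 0.754 and 11.9 CPM in the combination tumors, against 0.421, 0.310 and 0.165 CPM in the ADU-S100 tumors, with a log2 fold change of 3.92 (SE 1.25, 1.36 without 28LL). Dsc2, a desmosome cadherin, had 2.08, 2.57 and 75.7 CPM in the combination tumors, against 0.631, 0.842 and 1.23 CPM in the ADU-S100 tumors, with a log2 fold change of 4.90 (SE 1.54, 1.36 without 28LL). None of the 3 overlapped between the groups, and all were highest in 28LL. Kcnk10, Lcn4 and Gm44040, also among the genes with the highest fold changes without overlap, had log2 fold changes of 4.10 (2.26 without 28LL), 3.90 (1.69 without 28LL) and 3.90 (0.93 without 28LL), with combination tumors 20L and 22 under 1 CPM in each. The list of epithelial and tumor genes as a whole had a median of 0.02 (0.05 without 28LL) over 15 tested genes.

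Proliferation genes had small positive differences in the mean. All 20 tested genes had a positive log2 fold change (52.9% of all tested genes), with a median of 0.22. Only Rrm2 was higher without overlap and only Rrm2 was higher at p under 0.05 (4.66% and 2.43% of all tested genes). Rrm2, a subunit of the enzyme that makes deoxyribonucleotides, had 102, 98.8 and 103 CPM in the combination tumors, against 82.7, 79.2 and 69.8 CPM in the ADU-S100 tumors, with a log2 fold change of 0.40 (SE 0.13). The mean log2 level of the list was 6.88, 6.71 and 6.08 in the combination tumors, against 6.44, 6.46 and 6.27 in the ADU-S100 tumors, highest in 20L and 22 and lowest of the 6 tumors in 28LL. Without 28LL the median was 0.42, and 16 of 20 genes were higher without overlap, where 11.5% of all genes were. Pcna, the sliding clamp of DNA replication, had 249, 242 and 206 CPM in the combination tumors, against 227, 184 and 170.0 CPM in the ADU-S100 tumors, and Bub1, a mitotic checkpoint kinase, had 40.4, 30.6 and 22.6 CPM in the combination tumors, against 23.2, 25.6 and 26.3 CPM in the ADU-S100 tumors.

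Cell death genes had a median of -0.01 (-0.21 without 28LL) over 20 tested genes, with 10 positive, as were 52.9% of all tested genes. Ripk3, a kinase of necroptosis, had 97.0, 98.3 and 67.8 CPM in the combination tumors, against 144, 95.2 and 103 CPM in the ADU-S100 tumors, overlapping. The p53 targets had a median of 0.07 (-0.19 without 28LL) over 12 tested genes and the genes of hypoxia and glycolysis 0.10 (0.04 without 28LL) over 14. Each of these lists had at most 1 gene without overlap in a direction, against 4.66% of all genes higher and 6.19% lower.

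Genes of adjacent tissue varied widely between tumors. The skeletal muscle fiber list had a summed level of 154, 1327 and 6801 CPM in the combination tumors, against 2899.8, 817 and 291 CPM in the ADU-S100 tumors, and all 20 of its genes overlapped. Its median log2 fold change was 1.09, and -0.79 without 28LL. Tumor 28LL thus had the highest muscle sum as well as the highest granzymes, while 17LL, the ADU-S100 tumor with the most muscle, had the lowest granzyme sum. With the muscle level as a covariate, the log2 fold change was 2.40 for Gzma, 2.02 for Gzmb, 1.93 for Prf1, 2.26 for Gzmc, 2.79 for Gzmd, 2.77 for Gzme, 2.60 for Gzmf and 3.32 for Gzmg, all lower than without it. In that edgeR fit, which includes 28LL, the adjusted p of these genes was 0.791 to 0.795. Of the genes of regenerating muscle, Myh3, the embryonic myosin, had 1.84, 2.10 and 7.06 CPM in the combination tumors, against 0.869, 0.155 and 0.319 CPM in the ADU-S100 tumors, without overlap, with a log2 fold change of 3.05 (SE 0.85, 2.16 without 28LL). The adipocyte list summed to 43.3, 57.8 and 220.5 CPM in the combination tumors, against 137, 77.6 and 101 CPM in the ADU-S100 tumors, and its median was 0.29, and -2.20 without 28LL. Skin genes summed to 38.05, 8.00 and 17.8 CPM in the combination tumors, against 76.98, 13.9 and 14.8 CPM in the ADU-S100 tumors, with 3 of 14 tested.

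Pericyte and smooth muscle genes had a median of 0.23 over 14 tested genes and endothelial genes -0.04 over 18, and these were -0.61 and -0.33 without 28LL. Selp, the P-selectin that endothelium and platelets bring to their surface, had 1.18, 2.58 and 36.7 CPM in the combination tumors, against 1.86, 1.16 and 0.902 CPM in the ADU-S100 tumors, with its high level in 28LL alone. B cell genes had a median of -0.46 (-0.31 without 28LL) over 12 tested genes, with Pax5, the factor that fixes B cell identity, lower without overlap at 0.433, 0.217 and 0.632 CPM in the combination tumors, against 0.841, 1.18 and 0.792 CPM in the ADU-S100 tumors. Plasma cell and immunoglobulin genes had a median of 0.11 (-0.12 without 28LL) over 16 tested genes, red blood cell and platelet genes 0.86 (0.78 without 28LL) over 10, and genes of RNA quality and stress 0.06 (-0.18 without 28LL) over 12. Ddit3, a transcription factor of the unfolded protein response, had 43.3, 50.6 and 43.7 CPM in the combination tumors, against 58.3, 86.8 and 71.9 CPM in the ADU-S100 tumors, without overlap.

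**Figure D4:**
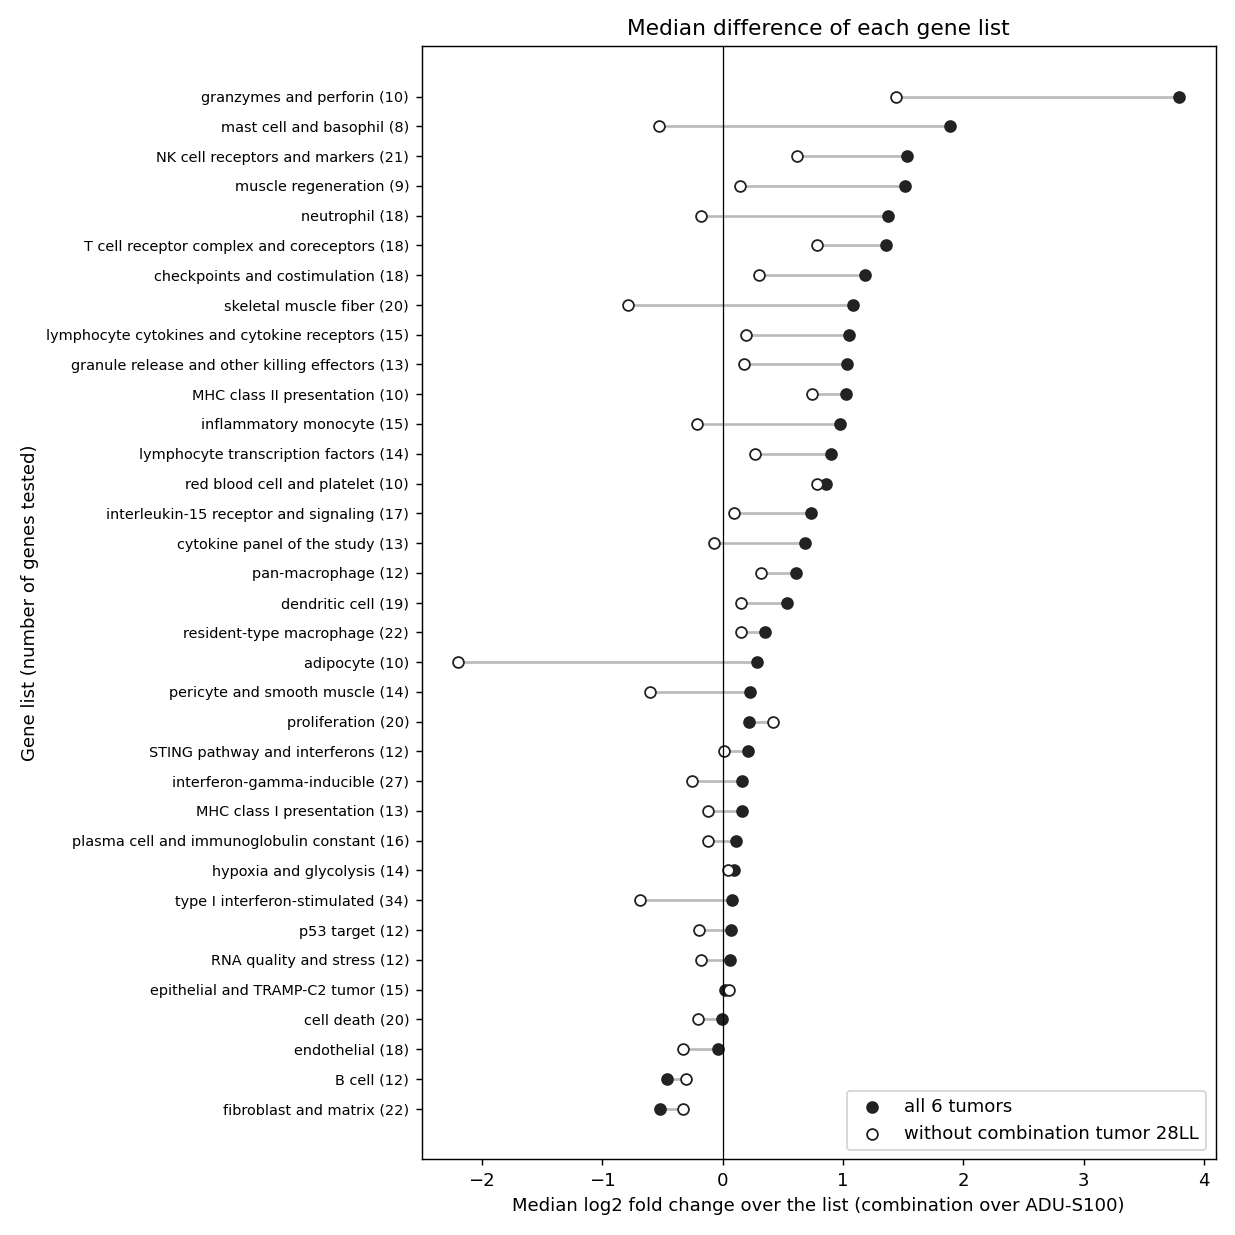
Median log2 fold change (combination over ADU-S100) of each gene list with at least 8 tested genes, from the fit of all 6 tumors (filled) and without combination tumor 28LL (open). Granzymes and perforin have the highest median in both fits, at 3.79 and 1.44, whereas neutrophil, monocyte, mast cell, muscle fiber and adipocyte medians are below 0 without 28LL.

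Beside the other treatments, the combination tumors held the highest mean granzyme level. The mean log2 level of granzymes and perforin was 4.65, 5.81 and 9.23 in the combination tumors, against 3.30, 3.91 and 4.60 in the ADU-S100 tumors, and it was 1.56 to 2.76 in cyto-IL-15 tumors and 0.12 to 0.34 in HBSS tumors. For NK receptors it was 3.01, 3.98 and 5.22 in the combination tumors, against 2.91, 3.00 and 3.12 in the ADU-S100 tumors, and 1.89 to 3.52 in cyto-IL-15 tumors and 1.57 to 1.87 in HBSS tumors. The combination tumors thus overlapped with the cyto-IL-15 tumors for NK receptors but not for granzymes. For MHC class II it was 4.65, 5.69 and 5.63 in the combination tumors, against 4.18, 5.21 and 4.26 in the ADU-S100 tumors, below the 5.67 to 6.58 of HBSS tumors in 5 of the 6 tumors.

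**Figure D5:**
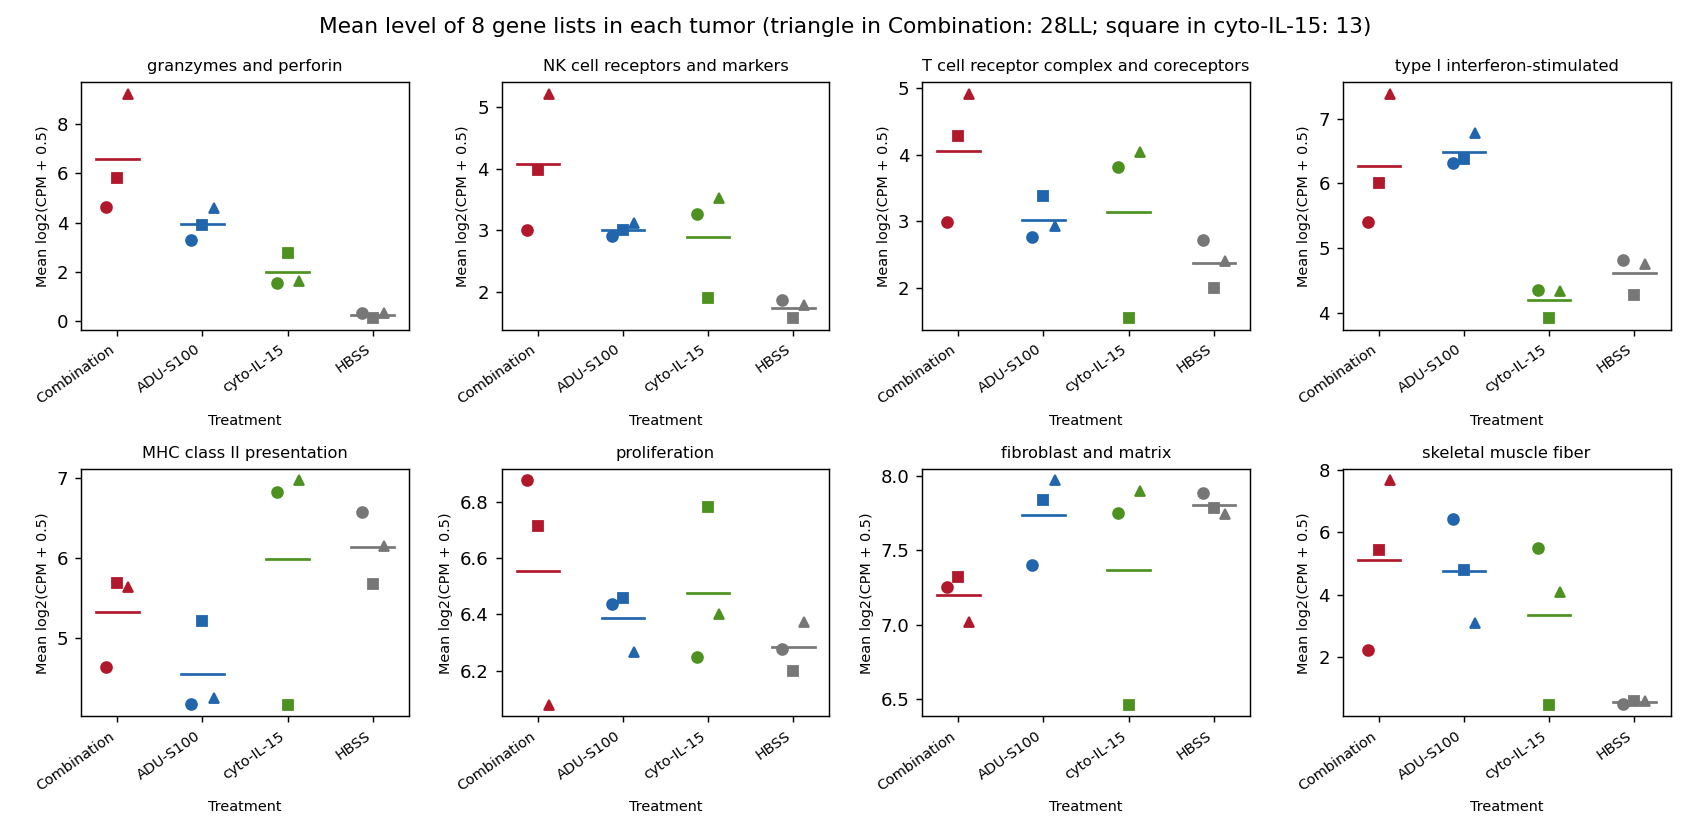
Mean log2(CPM + 0.5) of 8 gene lists in each of the 12 tumors; each point is a tumor and each bar the mean of a treatment, with combination tumor 28LL as the red triangle. Granzymes and perforin lie at 4.65 to 9.23 in combination tumors and 3.30 to 4.60 in ADU-S100 tumors, and skeletal muscle fiber genes spread widely in both groups.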

How the data were processed

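RNA of unsorted tumor tissue was sequenced in 12 tumors of 4 treatments, 3 tumors each. According to the labels and methods, the authors aligned reads with STAR 2.5.2b after Trimmomatic 0.36 and deposited gene counts from featureCounts (Subread 1.5.2) on GRCm38. Strand and multi-read settings are not given in the sources used here, so antisense and overlapping genes may share reads. The 49315 identifiers were matched to symbols (48970). Samples were grouped by treatment label. Deposited counts of the 6 tumors were tested with the quasi-likelihood test of edgeR 4.0.16 in R 4.3.3 (TMM, filterByExpr minimum 10, Benjamini-Hochberg adjusted p under 0.05, absolute log2 fold change above 1). CPM came from TMM factors over 12 tumors, and log2 levels used log2(CPM + 0.5). Alternatives used DESeq2 1.42.0, limma 3.58.1, other filters, scalings and covariates, and each tumor left out. The test was checked on simulated counts. Genes named were, at a mean of at least 1 CPM, the 10 higher and 10 lower with the smallest p and the 10 with the highest and lowest fold change without overlap, then DESeq2 calls on the 6 tumors, up to 6 genes per list with the smallest p, and all members of 3 lists (granzymes and perforin, interleukin-15, cytokine panel). Members and lists were chosen with earlier results of these data known. Columns of other tumors served for levels and for the alternative fits on all 12 tumors. Promoters were read from RefSeq, and protein sequences were not used. A few genes that the rule names are not reported here.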

Additional observations from a re-analysis of the deposited data

How the results depend on the processing

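The count of 0 DEGs of edgeR was also 0 with all 12 tumors in the fit, RLE size factors, no filter, no fold-change threshold, the likelihood ratio test, limma voom with tumor weights, the muscle covariate and each of the 6 tumors left out (range 0 to 0). The DESeq2 Wald test called 4 genes on the 6 tumors and 15 on all 12 tumors. The cause of this difference was not tested. The number of genes without overlap, 871 higher and 1157 lower, was 856 and 1194 with CPM of the library total and 983 and 1066 with RLE size factors. With each tumor left out it ran from 1292 to 2636 higher and from 1679 to 2586 lower, since fewer tumors overlap less often. Of 1325 comparisons of 96 quoted log2 fold changes with an alternative, 1310 kept their direction and their side of the threshold, 13 passed it, each in a DESeq2 fit, and 2 changed sign. None of these genes was called in the main fit, so keeping a side meant only that the alternative did not call it either. Size was not compared in this tally: the log2 fold change of Gzmg, counted as kept, was 6.32 in the main fit and 1.63 without 28LL. DESeq2 gave no adjusted p in 19 further comparisons, which have no side of the threshold. Among them were Gzmd, Gzme, Gzmf and Gzmg in both DESeq2 fits and Gzmc in the fit of the 6 tumors. The 2 changes of sign were both of the log2 fold change of Il15ra, at -0.0243 with tumor weights and -0.19 without 28LL. Its values with a tumor left out ran from -0.19 to 0.78. Medians of 14 of 37 lists changed sign without 28LL, 6 without 17LL and 0 to 4 without another tumor, with all 12 tumors in edgeR, with RLE size factors, without a filter or with DESeq2 on the 6 tumors. List medians were not computed under the remaining alternatives. The medians given without 28LL are over the genes tested with all 6 tumors.

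No paired analysis was made because the labels do not say what the tumor numbers mean. The number 22 occurs in both groups, in 22 and 22LR. Whether any tumors share a mouse, cage, litter or day is not known. The spread between tumors, a biological coefficient of variation of 0.400 with 28LL included, limits these values.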

Other observations

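Several genes chosen after their values were seen stood far apart in combination tumor 28LL alone. Ctsg, which encodes cathepsin G of neutrophil and mast cell granules and lies beside the granzymes on chromosome 14, had 1.22, 0.957 and 107 CPM in the combination tumors, against 0.0982, 0.222 and 1.46 CPM in the ADU-S100 tumors. Sh2d1b2, an adaptor of NK cell receptors, had 0.822, 2.88 and 51.03 CPM in the combination tumors, against 0.659, 1.12 and 1.42 CPM in the ADU-S100 tumors, and Fcrl6, a receptor of cytotoxic lymphocytes, had 0.627, 0.435 and 19.95 CPM in the combination tumors, against 0.238, 0.213 and 0.572 CPM in the ADU-S100 tumors. Cd55, which shields cells from complement, had 5.84, 17.6 and 211 CPM in the combination tumors, against 6.27, 5.05 and 8.20 CPM in the ADU-S100 tumors, and Ifitm1, an interferon-induced membrane protein, had 11.7, 12.8 and 183 CPM in the combination tumors, against 4.21, 4.20 and 6.85 CPM in the ADU-S100 tumors. In each of these genes the value in 28LL was more than 10 times that of any other of the 6 tumors.

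Yap1, the transcriptional coactivator of the Hippo pathway, had 127, 96.98 and 1141 CPM in the combination tumors, against 122, 120.3 and 131 CPM in the ADU-S100 tumors. In the 3 cyto-IL-15 tumors it had 96.7 to 37355 CPM and in the 3 HBSS tumors 129.6 to 5046 CPM, so a high level was present in single tumors of 3 treatments. Krt19, a keratin of simple epithelia, had 0.134, 0.159 and 8.67 CPM in the combination tumors, against 0.463, 0.348 and 1.78 CPM in the ADU-S100 tumors, 0.0888 to 511 CPM in the cyto-IL-15 tumors and 0 to 26.9 CPM in the HBSS tumors.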
